A study of Danio rerio with 10 samples.

Results

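Neural ectoderm cells were compared with non-neural ectoderm cells of the same libraries, taking both names from the cell type annotation the authors deposited. The comparison held 2576 of 8226 annotated cells, of which 1729 were neural ectoderm and 847 were non-neural ectoderm. The cells came from zebrafish (Danio rerio) embryos of the AB/TL strain whose RNA had been marked by 20 mM 4sUTP, given at the 1-cell stage as a modified uridine that newly made transcripts take up. After capture of single cells by Drop-seq, the RNA was treated with 10 mM iodoacetamide (IAA), so that incorporated 4sU is read as a T-to-C change. RNA estimated from such changes to be newly made is called labelled and is zygotic, and the rest is called unlabelled and is mostly maternal. The labelled fraction is a statistical estimate (GRAND-SLAM). Per the study it can be too low in cells with few reads, so some zygotic RNA may count as unlabelled. The 5 IAA libraries were 1 of the dome stage (replicate B) and 2 each of 30% and 50% epiboly (replicates A and B at both stages), each made from a pool of embryos. All 5 carry the same injection and the same chemical treatment, and the unconverted libraries of the series were not analysed here.

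Both cell types lie in every library, so that each library gives its own contrast between them. In the order dome B, 30% epiboly A, 30% epiboly B, 50% epiboly A and 50% epiboly B, the libraries held 65, 474, 94, 1012 and 84 neural cells and 38, 237, 124, 418 and 30 non-neural cells. This order of libraries is used for every set of 5 values that follows. Within each library the counts of all cells of a type were added up, which gave sums between 71220 and 2476882 unique molecular identifiers (UMIs), and levels are given as CPM, which scales the UMIs of a gene to the UMI total of the sum. Non-neural cells were deeper in 5 of 5 libraries, with a median of 2407 to 4310 UMIs per cell against 1714 to 2449 in neural cells. The dome library is replicate B by its label, whereas its cell names carry the letter A. Per the methods of the study, epiboly embryos of the first replicate were freed of yolk by hand and those of the second were shaken in bulk. The labels do not say which letter is the first replicate, and both cell types of a library shared one dissociation. A total of 2 cells shared a barcode with a cell of another library.

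At these stages the ventral side of the blastula and gastrula secretes bone morphogenetic proteins (BMPs), which signal through Smad proteins, and ectoderm that receives this signal forms epidermis. Dorsal organizer cells secrete BMP antagonists such as Chordin, and ectoderm shielded from BMP by these antagonists, together with FGF signalling, forms the neural plate. SoxB1, Zic and Her factors are typical of the neural side, and Vent-family repressors, AP-2 factors, Foxi1 and Id proteins of the ventral side.

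The deposited names were first set beside marker lists. The clusters were made from total expression of the same cells, so the counts are a description and no independent test. A marker could also reach the level of 5 CPM through the type in which it was high. Of all 4164 genes tested for total expression, 51.4% had a fitted difference towards neural ectoderm. Of 17 neural markers in the table, 11 reached a mean of 5 CPM in either type, and 10 of these were higher in neural ectoderm. The exception was sox3, a SoxB1 factor that the study used among its annotation markers. Its level was 1379, 2085, 2232, 2332 and 3420 CPM in neural cells and 1947, 2284, 2349, 2560 and 3538 CPM in non-neural cells. The non-neural value was thus the higher one in 5 of 5 libraries, by a difference that did not pass the test (log2 difference -0.11 ± 0.06 SE, adjusted p = 0.61). Among all 15 annotated cell types, sox3 was highest in non-neural and second highest in neural ectoderm. The genes sox2, sox19a, zic2b and her3 were highest in neural ectoderm of all 15 types. Among forebrain and eye markers, six3b was at 0.0807 CPM, rx3 at 0 CPM and otx2b at 3.04 CPM in neural cells, whereas otx2a was at 23.3 CPM and hesx1 at 19.8 CPM, both above their non-neural means. All 15 non-neural markers that reached 5 CPM were higher in non-neural ectoderm, and tfap2c and id1 were highest there of all 15 types. Later epidermal markers were near 0 in both types, with dlx3b at 0 CPM and tp63 at 2.10 CPM in neural and 1.77 CPM in non-neural cells. The non-neural list summed to 6010 CPM in non-neural ectoderm, second to the ventral margin at 6575 CPM. On these markers the names separate a her3 side from a ved and tfap2c side, both with high sox3. The levels of id1 (1550 CPM in neural, 2029 CPM in non-neural) and sox2 (191 and 98.6 CPM) differed in direction, but both types ranked highest of all 15 for each gene.

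Markers of other cell types were summed in both ectoderm types. The summed level of the enveloping layer list was 548 CPM in neural and 565 CPM in non-neural cells against 3.547e+04 CPM in the enveloping layer itself, and that of the germ cell list was 205 and 194 CPM against 3.693e+04 CPM in germ cells. The mesendoderm list, with 20 genes in the table, summed to 502 to 1151 CPM in neural and 764 to 1700 CPM in non-neural cells, against 4417 CPM in the ventral margin and 1.079e+04 CPM in the prechordal plate. Most of that sum was tbx16 and noto, and the other 18 genes summed to 26.4 to 145 CPM in neural and 43.1 to 148 CPM in non-neural cells, with the neural value higher in 3 of 5 libraries. The list of apoptotic-like cells summed to 1777 and 1829 CPM, against 4570 CPM in the type with the highest level. The organizer gene gsc was at 8.64 and 3.15 CPM, osr1 at 1.34 and 0.612 CPM, and the germ cell gene nanos3 at 4.51 and 1.77 CPM.

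Total expression differed for few genes, with the BMP-like ligand gene admp and the BMP-maintained repressor gene ved at the lowest p of the 2 directions. Of 4164 genes tested, 67 (1.61%) passed a false discovery rate of 5%, of which 34 (0.817%) were higher in neural and 33 (0.793%) higher in non-neural ectoderm. Among the 67 genes, 46 had the same sign in every library with UMIs, 22 on the neural and 24 on the non-neural side. The absolute log2 difference had a median of 0.90 and ran from 0.22 to 4.04, and 30 genes differed by more than 1 on the log2 scale, 15 in each direction. The median log2 difference over all tested genes was 0.01. The fit was edgeR's quasi-likelihood test with a term for the library and Benjamini-Hochberg adjustment, and every adjusted p of total expression comes from it. The authors' clusters were made from total expression, so these p-values are no independent test of the cell types. They also rest mostly on spread pooled over genes, with a median of 174.5 prior degrees of freedom against 4 residual ones. A low p therefore does not show that a gene differed by the same amount in every library. The count depended on the settings, with 6 genes without the library term, 31 in DESeq2, 25 with 10 or more UMIs in every sum, 102 with pseudotime-matched cells and 29 without 50% epiboly replicate A.

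On the neural side the largest difference was that of admp (ENSDARG00000025372), a BMP-like ligand made by the dorsal organizer. Neural cells held 231, 312, 254, 394 and 206 CPM of admp, and non-neural cells 7.19, 12.2, 16, 30.1 and 0 CPM. The groups did not overlap, and the lowest neural library lay above the highest non-neural one. The fitted difference was 16.4-fold (log2 4.04 ± 0.16 SE, adjusted p = 2.4e-57). In 50% epiboly B the non-neural sum of 71220 UMIs held no admp UMI, which allows up to 42.1 CPM. Across all types admp was highest in the notochord (522 CPM), with neural ectoderm second.

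The forkhead factor gene foxd3 (ENSDARG00000021032), known from the organizer and later from the neural crest, was at 72.6, 200, 322, 258 and 165 CPM in neural and at 21.6, 39.8, 97.7, 55.3 and 14 CPM in non-neural cells. It was higher in neural cells of 5 of 5 libraries, by 4.43-fold (log2 2.15 ± 0.14 SE, adjusted p = 4.6e-32), although the dome neural value lay within the non-neural range. Across all types foxd3 was highest in the notochord (352.5 CPM), with neural ectoderm second (203.4 CPM). The gene her3 (ENSDARG00000076857), a Hairy/E(spl) repressor of the neural plate, was not detected in either type at dome. In the later libraries it was at 49.5, 155, 176 and 177 CPM in neural and at 4.59, 41.6, 14 and 70.2 CPM in non-neural cells. The difference was 7.39-fold (log2 2.89 ± 0.21 SE, adjusted p = 3.8e-26), in the same direction in the 4 libraries with UMIs.

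The SoxB1 factor sox2 (ENSDARG00000070913) was at 106, 154, 207, 248 and 241 CPM in neural and at 93.4, 64.2, 133, 132 and 70.2 CPM in non-neural cells. Its difference was 1.95-fold (log2 0.97 ± 0.12 SE, adjusted p = 1.5e-10), smallest at dome. The notochord homeobox gene noto was at 66.0, 180, 306, 126 and 430 CPM in neural and at 7.19, 58.1, 123, 33.6 and 168 CPM in non-neural cells, a 3.14-fold difference (log2 1.65 ± 0.14 SE, adjusted p = 4.6e-21). Its level in neural ectoderm was below those of the notochord (808 CPM) and the prechordal plate (435 CPM). The 18 mesendoderm markers other than noto and tbx16 summed to a mean of 104 CPM in neural and 92.7 CPM in non-neural cells.

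Smaller or scarcer neural differences were also among the 10 genes of lowest adjusted p. They were rasgef1ba, a Ras exchange factor (log2 1.01 ± 0.14 SE), pkdccb, a secreted kinase (log2 1.80 ± 0.28 SE), midn (log2 1.39 ± 0.24 SE) and the small heat shock protein gene hspb1 (log2 0.33 ± 0.06 SE, adjusted p = 2.4e-05, but 0.074 in DESeq2). All 4 were higher in neural cells of 5 of 5 libraries. The gene hspb1 ranged from 1538 to 4986 CPM in neural and from 1490 to 3328 CPM in non-neural cells, so that its ranges overlapped and the difference was seen within libraries. Genes named after their values were seen were fzd8a, a Wnt receptor (log2 1.43 ± 0.34 SE, 5 of 5 libraries), tdgf1, a Nodal co-receptor (log2 1.15 ± 0.15 SE, 4 of 5), and lhx5, a forebrain LIM homeobox factor (log2 1.83 ± 0.35 SE, 4 of 5).

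**Figure D1:**
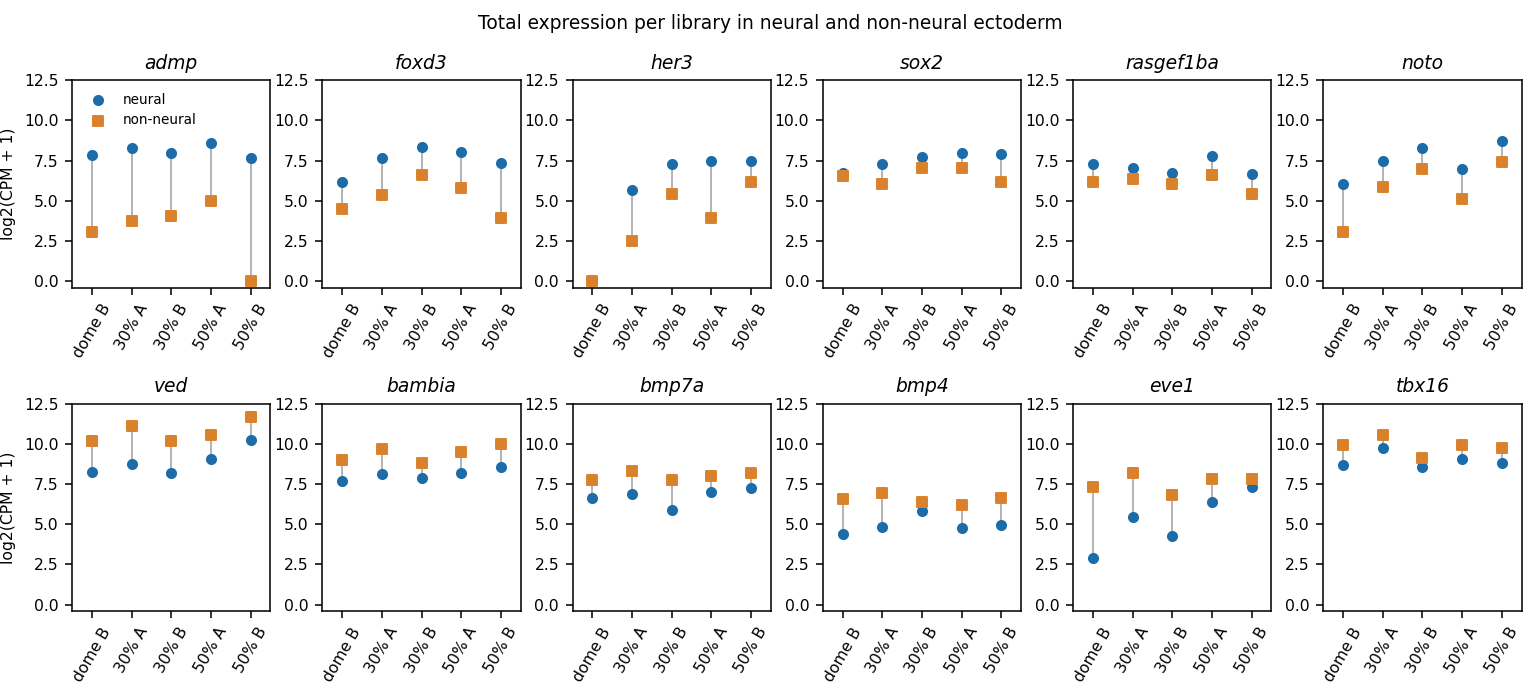
Total expression of 12 genes, as log2(CPM + 1) on the vertical axis, in neural and non-neural ectoderm of each of the 5 libraries, with a line joining the 2 types of a library. The upper genes (admp, foxd3, her3, sox2, rasgef1ba, noto) were higher in neural and the lower genes (ved, bambia, bmp7a, bmp4, eve1, tbx16) in non-neural ectoderm in every library in which they had UMIs.

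On the non-neural side the gene of lowest p was ved (ENSDARG00000102389), a Vent-family homeobox repressor of dorsal genes that BMP signalling maintains. Non-neural cells held 1164, 2203, 1181, 1506 and 3286 CPM of ved, and neural cells 304, 437, 291, 540 and 1201 CPM. It was 3.44-fold higher in non-neural cells (log2 -1.78 ± 0.08 SE, adjusted p = 2.1e-53), and the neural value of 50% epiboly B overlapped the non-neural range. In neural ectoderm ved was detected in every library, and its mean level there ranked 12 of 15 types. Across all types ved was highest in the ventral margin (3236 CPM), and non-neural ectoderm ranked 5 (1868 CPM). The even-skipped gene eve1 (ENSDARG00000056012), a ventral and posterior homeobox factor, was at 158, 284, 112, 220 and 225 CPM in non-neural and at 6.60, 43.0, 18.6, 83.6 and 159 CPM in neural cells (log2 -1.78 ± 0.15 SE, adjusted p = 3.4e-22). Its difference was large at dome and small in 50% epiboly B. Its level was highest in the ventral margin (919 CPM), against 200 CPM in non-neural ectoderm.

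The remaining genes of lowest p were bambia, apoc1, tbx16, bmp7a, her7, mid1ip1b, apoeb and bmp4, each higher in non-neural cells of 5 of 5 libraries. The T-box factor tbx16, known from the margin and the paraxial mesoderm, was at 970, 1493, 564, 977 and 870 CPM in non-neural and at 409, 850, 384, 536 and 447 CPM in neural cells (log2 -0.81 ± 0.07 SE, adjusted p = 2.4e-19). Its level in non-neural ectoderm was below those of the muscle and blood precursors (2287 CPM) and the ventral margin (1802 CPM). The sum of the 18 other mesendoderm markers, given above, was higher in non-neural cells in only 2 of 5 libraries. That list did not hold eve1, which was highest in the ventral margin and was higher in non-neural cells of 5 of 5 libraries. Whether the tbx16 difference came from cells of the margin was not tested. The apolipoprotein genes apoc1 (log2 -0.91 ± 0.08 SE, adjusted p = 1.1e-19 in edgeR and 0.07 in DESeq2) and apoeb (log2 -0.49 ± 0.06 SE) carry lipid. The Hairy/E(spl) gene her7, known from the somite clock, was lower in neural cells (log2 -1.32 ± 0.15 SE), the opposite of her3.

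**Figure D2:**
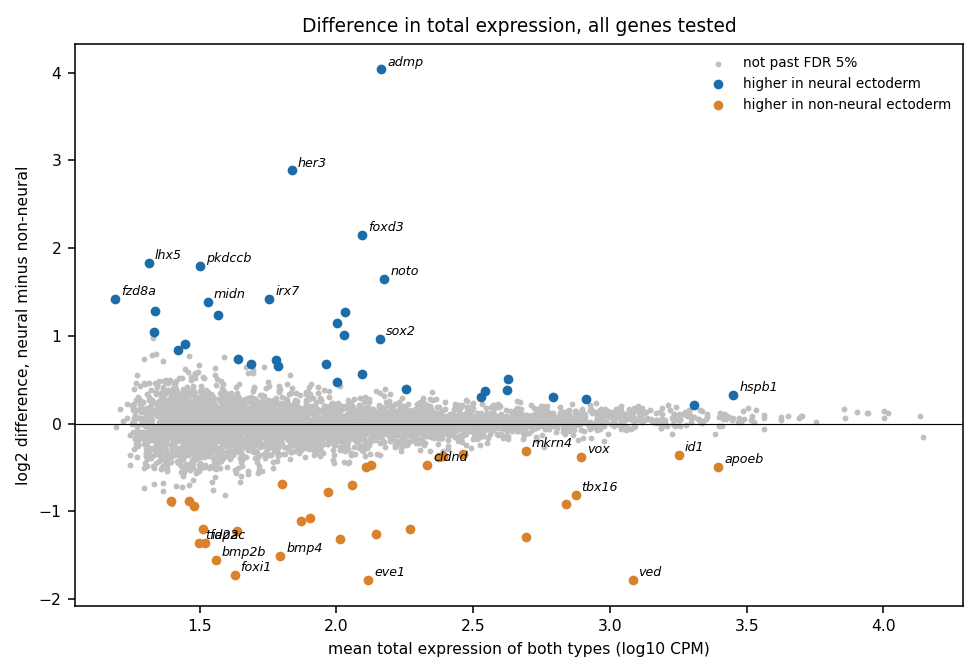
Log2 difference of total expression (neural over non-neural ectoderm) of the 4164 tested genes against mean expression of both types in log10 CPM, with the 67 genes past the 5% false discovery rate coloured by direction. The 34 neural and 33 non-neural genes lie at the edges of a cloud centred near 0, with admp farthest out on the neural side.

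The BMP pathway was read by role. The table held 17 ligands and extracellular antagonists, of which 4 passed the filter on low counts, and all 4 passed the test, against 1.61% of all tested genes: bmp2b, bmp4 and bmp7a were higher in non-neural cells and admp in neural cells. The ligand bmp7a was at 216, 312, 218, 260 and 295 CPM in non-neural and at 99.0, 118, 58.8, 126 and 153 CPM in neural cells, without overlap (2.30-fold, log2 -1.20 ± 0.11 SE, adjusted p = 8.3e-18). The ligand bmp4 was at 93.4, 121, 81.7, 72.1 and 98.3 CPM in non-neural and at 19.8, 27.1, 55.7, 26.6 and 29.4 CPM in neural cells, also without overlap (2.84-fold, log2 -1.51 ± 0.19 SE, adjusted p = 1.8e-10). The ligand bmp2b was 2.93-fold higher in non-neural cells (log2 -1.55 ± 0.24 SE, adjusted p = 2.3e-07). Across all types bmp2b and bmp7a were highest in endoderm (B) and bmp4 in the ventral margin.

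The Chordin gene chrd, an annotation marker of the study and a BMP antagonist, did not reach the count filter. It was at 39.6, 32.7, 24.8, 30.7 and 11.8 CPM in neural and at 0, 1.53, 1.60, 4.20 and 0 CPM in non-neural cells. Across all types chrd was highest in the prechordal plate (947 CPM), and neural ectoderm ranked 7 (27.9 CPM). The Sizzled gene szl, a ventral inhibitor of Chordin cleavage, also untested, was at 0, 3.74, 0, 3.23 and 5.89 CPM in neural and at 21.6, 59.7, 19.2, 33.6 and 56.2 CPM in non-neural cells. As counted, the values of each gene did not overlap between the types, in opposite directions. A count of 0 allows up to 42.1 CPM of chrd in non-neural cells of 50% epiboly B and up to 19.8 CPM of szl in neural cells at dome, and both limits reach into the range of the other type. A gene can pass such a filter through the type in which it is high, so the counts over tested members describe those members only.

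Among 12 receptor and Smad genes, 3 were tested. The transducer smad5 was higher in non-neural cells (log2 -0.35 ± 0.09 SE, 4 of 5 libraries, adjusted p = 0.02), whereas the receptors acvr1l (log2 0.03) and bmpr1aa (log2 -0.11) did not pass. Of the 6 tested feedback and target genes, 5 were higher in non-neural cells, against 0.793% of all tested genes. The gene bambia, a pseudoreceptor that dampens BMP signalling, was at 517, 806, 456, 734 and 1011 CPM in non-neural and at 205, 280, 235, 294 and 383 CPM in neural cells, with no overlap (2.46-fold, log2 -1.30 ± 0.08 SE, adjusted p = 2.1e-32). The inhibitors of bHLH factors id2a (log2 -1.36 ± 0.24 SE) and id3 (log2 -1.08 ± 0.15 SE) and the inhibitory Smad smad7 (log2 -0.89 ± 0.26 SE) were higher in non-neural cells of 5 of 5 libraries. The difference of id1 was smaller (1.28-fold, log2 -0.36 ± 0.06 SE, adjusted p = 1.1e-05). In id1 the types were at 1726 (non-neural) and 1789 CPM (neural) in 30% epiboly B, against 1655 and 1172 CPM in 50% epiboly A, so that 4 of 5 libraries showed the direction. The median log2 difference of these 6 genes was -0.98, against 0.01 over all tested genes.

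Of 26 epidermal and ventral transcription factors, 8 were tested and 7 were higher in non-neural cells, against 0.793% of all tested genes, with a median log2 difference of -1.29 over the 8. They were ved, eve1, vent (log2 -1.11 ± 0.17 SE), vox (log2 -0.38 ± 0.07 SE), foxi1, an epidermal forkhead factor (log2 -1.73 ± 0.28 SE), klf2b, an epidermal Krüppel-like factor (log2 -1.22 ± 0.20 SE), and tfap2c, an AP-2 factor of non-neural ectoderm (log2 -1.36 ± 0.23 SE). The closely related vox and ved differed in size: vox was at 295, 601, 823, 498 and 2106 CPM in non-neural and at 264, 425, 644, 333 and 1848 CPM in neural cells. Both were higher in non-neural cells of 5 of 5 libraries. The gene foxi1 had no UMI in either type at dome and was at 225 against 64.8 CPM in 50% epiboly B. The types were clustered on total expression, and a gene can pass the filter through the type in which it is high. The count of 7 among 8, and the counts of the lists that follow, therefore describe the tested members and are no independent test.

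Among 9 tested neural plate factors, 4 were higher in neural cells (irx7, foxd3 and her3 among them), against 0.817% of all tested genes, and 5 did not pass. The gene irx7, an Iroquois homeobox factor, had a log2 difference of 1.42 ± 0.23 SE, but was at 106 CPM in neural and 112 CPM in non-neural cells of 50% epiboly B. Of the 4 tested SoxB1 genes, sox2 alone passed. The gene sox19a was at 952 against 832 CPM on average (log2 0.23 ± 0.07 SE, adjusted p = 0.054), and the summed SoxB1 level was 3460 CPM in neural and 3485 CPM in non-neural cells, the 2 highest of 15 types. The gene zic2b was at 765 and 746 CPM (log2 0.08, adjusted p = 0.87) and foxd5 at 215 and 240 CPM (log2 -0.17, adjusted p = 0.72). Of the neural marker list 4 of 7 tested genes were higher in neural cells, among them shisa2a, an inhibitor of Wnt and FGF receptors (log2 0.37 ± 0.09 SE).

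The lists of other pathways were small, and their counts stand beside the 1.61% called of all tested genes. Of 8 tested FGF genes 1 passed, the feedback inhibitor il17rd (log2 1.29 ± 0.27 SE, higher in neural cells), and the FGF target etv4 was at 160 and 119 CPM (adjusted p = 0.09). In the list of Wnt, Cdx, Hox and retinoic acid genes, the Wnt target sp5l was higher in neural (log2 0.51 ± 0.08 SE, 4 of 5 libraries) and the caudal factor cdx4 in non-neural cells (log2 -1.21 ± 0.24 SE). Among 4 tested Notch genes her7 passed, and among 11 adhesion and guidance genes the chemokine cxcl12a passed, higher in non-neural cells (log2 -0.49 ± 0.13 SE), whereas its receptors cxcr4a (log2 0.16) and cxcr4b (log2 0.14) did not. The genome activator nanog was higher in non-neural cells (log2 -0.37 ± 0.10 SE, 4 of 5 libraries), and pou5f3 did not pass (log2 0.14, adjusted p = 0.5). None of the 14 tested S phase or the 14 tested G2 and M phase genes passed in edgeR or DESeq2, with medians of -0.05 and -0.02 on the log2 scale. An unadjusted p under 0.05 was reached by 3 and 2 of them in edgeR and by 0 and 1 in DESeq2. Of 6 stress and immediate early genes ier2b and hspb1 were higher in neural cells.

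The called genes were mostly labelled, that is zygotic. Of the 67 genes 53 had at least 20 UMIs behind a labelled fraction, and their median labelled fraction over both types was 84.9%, against 33.9% over 2496 tested genes. Over 80% labelled were 37 of 53 called genes (69.8%) and 281 of 2496 tested genes (11.3%). For 47 called genes with at least 10 UMIs behind the fraction in both types, summed over libraries, the median was 82.2% in neural and 88.5% in non-neural cells. Of the 53 called genes with at least 20 UMIs, only 3 were under 20% labelled. All 3 were higher in non-neural cells: cldnd, a claudin of the egg (1.13%), mkrn4 (4.39%) and desi2 (14.2%). For cldnd the difference was in unlabelled RNA, at 309, 155, 177, 213 and 407 unlabelled CPM in non-neural and 251, 157, 136, 117 and 218 unlabelled CPM in neural cells, a higher non-neural value in 4 of 5 libraries.

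Labelled and unlabelled expression were next compared separately, as the product of CPM and the labelled fraction or its complement. Of 1130 genes tested for labelled expression 1 (0.0885%) passed in limma, which was ved. Labelled ved was at 1039, 1814, 1104, 1299 and 3189 CPM in non-neural and at 223, 332, 234, 448 and 1162 CPM in neural cells (log2 of CPM plus 1, -1.98 ± 0.17 SE, adjusted p = 0.045). An unadjusted p under 0.05 was reached by 71 genes. The next genes were tbx16 (log2 -0.94 ± 0.12 SE) and bambia (log2 -1.34 ± 0.14 SE), each with an adjusted p of 0.11. The number of called genes lay between 0 and 5 under other settings, and only 22 of the 67 genes called in total expression had the UMIs for this test, so admp, foxd3 and her3 were not among those tested.

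The difference of ved lay mainly in the labelled component, which made up 94.8, 83.9, 97.6, 88.0 and 97.3% of the difference in total CPM. For tbx16 the labelled component was 100.2, 96.4, 97.7, 94.3 and 100.6% of the difference, and for bambia it was 92.7, 90.1, 94.1 and 95.3% in the 4 libraries with enough UMIs. In apoeb unlabelled RNA was 106, 154, 70.7, 141 and 120 CPM in neural and 186, 203, 52.7, 96.6 and 93.0 CPM in non-neural cells, with no common direction, and the labelled values differed in the same direction in each library. For id1 the labelled share was 52.0, 76.0, 87.0 and 92.9% in the 4 libraries in which non-neural cells were higher. It was thus well under that of ved at dome (79 and 128 UMIs behind the fraction), and nearer to it at 50% epiboly. Unlabelled ved also differed, at 80.3, 105, 56.8, 91.8 and 39.2 CPM in neural and 125, 389, 77.7, 207 and 96.1 CPM in non-neural cells. Labelled sox3 was higher in non-neural cells of 5 of 5 libraries (log2 -0.18 ± 0.06 SE, adjusted p = 0.78). Labelled pou5f3 was at 646, 897, 634, 1077 and 975 CPM in neural and at 596, 724, 500, 969 and 779 CPM in non-neural cells, although its total level in 50% epiboly B was higher in non-neural cells.

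**Figure D3:**
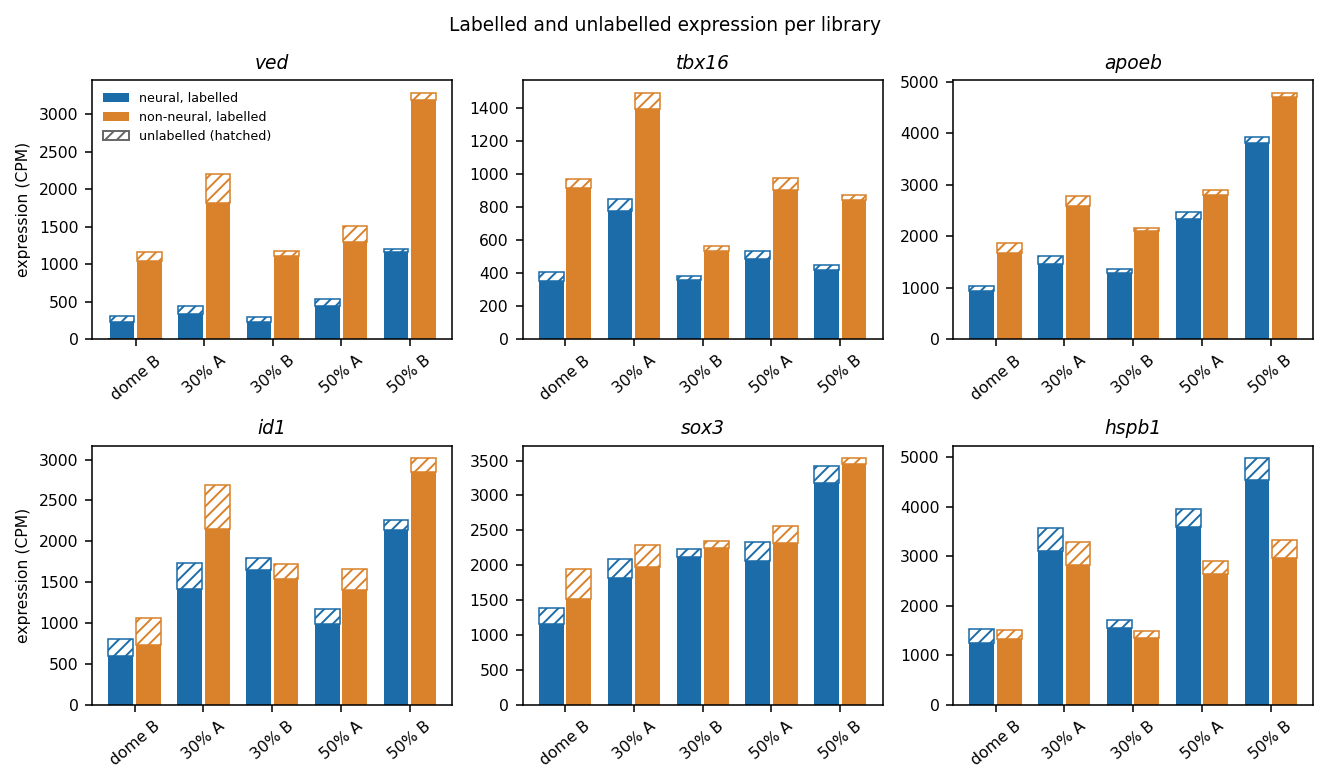
Labelled and unlabelled CPM, stacked, of ved, tbx16, apoeb, id1, sox3 and hspb1 in neural and non-neural ectoderm of the 5 libraries. In ved and tbx16 the labelled part makes up most of each bar and of the difference between the types, and in ved and id1 the unlabelled part also differs.

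Of 1130 genes tested for unlabelled expression none (0.0%) passed in limma at a false discovery rate of 5%, and 56 had an unadjusted p under 0.05. With array weights 0 genes passed and 79 had an unadjusted p under 0.05. The lowest adjusted p was 0.557. The genes of lowest p with a lower value in neural cells were ved (log2 -1.08 ± 0.24 SE), id1 (log2 -0.55 ± 0.12 SE) and the proteasome gene psmb7 (log2 -0.64 ± 0.19 SE). On the other side were the cytoskeletal gene marcksl1b (log2 0.95 ± 0.24 SE) and the small GTPase gene cdc42l (log2 0.20 ± 0.06 SE). In marcksl1b 97.5% of RNA was labelled in neural and 98.5% in non-neural cells, so the unlabelled level rests on a small remainder.

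The labelled fraction of single genes, whose per-cell estimates did not enter the clustering, was tested for 755 genes and none (0.0%) passed in limma at a false discovery rate of 5%. A total of 38 genes had an unadjusted p under 0.05, and the lowest adjusted p was 0.872. The genes of lowest p were UBB (ubiquitin, 17.7 ± 4.34 SE points higher in neural cells), srp54, of the signal recognition particle (7.46 ± 1.73 SE points), and npm3 (15.2 ± 4.19 SE points), and, lower in neural cells, adka (-4.11 points), nnr (-6.01 points) and prtfdc1 (-4.13 points). Libraries with under 30 UMIs behind a value were left out, and in these the direction was opposite for UBB at dome (47.0% on 24 UMIs in neural, 72.7% in non-neural cells) and for npm3 in 50% epiboly B (45.2% in neural, 55.4% on 29 UMIs in non-neural cells). It was also opposite for adka in 50% epiboly B (12.9% on 18 UMIs in neural, 0% on 11 UMIs in non-neural cells). In the libraries used, adka was at 0% in neural and at 4.57, 2.97 and 4.8% in non-neural cells. The median standard error over genes was 3.01 points, which limits what could be detected per gene.

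The overall labelled fraction was taken over gene and cell pairs with at least 3 UMIs, in genes with at least 50 UMIs over all cells. These pairs held 52.5 to 68.2% of UMIs, a larger share in the deeper non-neural cells of each library. The fraction was 31.5, 43.0, 37.5, 53.2 and 39.8% in neural and 33.7, 43.2, 36, 49 and 36.7% in non-neural ectoderm. Neural cells were therefore lower in dome and, slightly, in 30% epiboly A and higher in the other 3 libraries. The difference was -2.18, -0.20, 1.55, 4.25 and 3.08 percentage points, with a mean of 1.30 ± 2.56 points (SD, n = 5, two-sided exact sign-flip permutation test, p = 0.375, where 0.0625 is the smallest p of 5 libraries). In 50% epiboly A the 95% Wilson intervals were 53.1 to 53.3% and 48.9 to 49.1%, which cover counting error only. The spread between cells of one type within a library was wider than these differences, with an SD of 5.97 to 11 points. The difference was split over genes measured in both types: the part from unequal labelling of the same genes was -1.80, -0.07, 0.73, 1.93 and 2.56 points and the part from unequal use of genes was -0.55, -0.13, 0.53, 2.11 and 0.21 points.

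Pseudotime, the developmental position the authors assigned to each cell from total expression, was compared as a description, without a test. The median pseudotime of neural cells minus that of non-neural cells was -5.51, -4.31, -0.21, 3.10 and -3.25 pseudo-minutes, a mean of -2.04 ± 3.48 (SD, n = 5). Neural cells were thus earlier in 4 of 5 libraries and later in 50% epiboly A. When equal numbers of cells of both types were taken from each bin of 5 pseudo-minutes, the labelled fraction was higher in neural cells of 5 of 5 libraries, by 0.78, 1.71, 1.60, 3.55 and 8.97 points (mean 3.32 ± 3.32 SD, n = 5, two-sided exact sign-flip permutation test, p = 0.0625, the smallest possible). The largest of these values came from the library with 30 cells of each type. Of the 18 bins with at least 10 cells of both types, neural cells were higher in 14, with a median of 1.56 points and a range from -0.68 to 8.83 points. In 50% epiboly A this held in 7 of 8 bins and in 30% epiboly A in 3 of 6 bins.

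**Figure D4:**
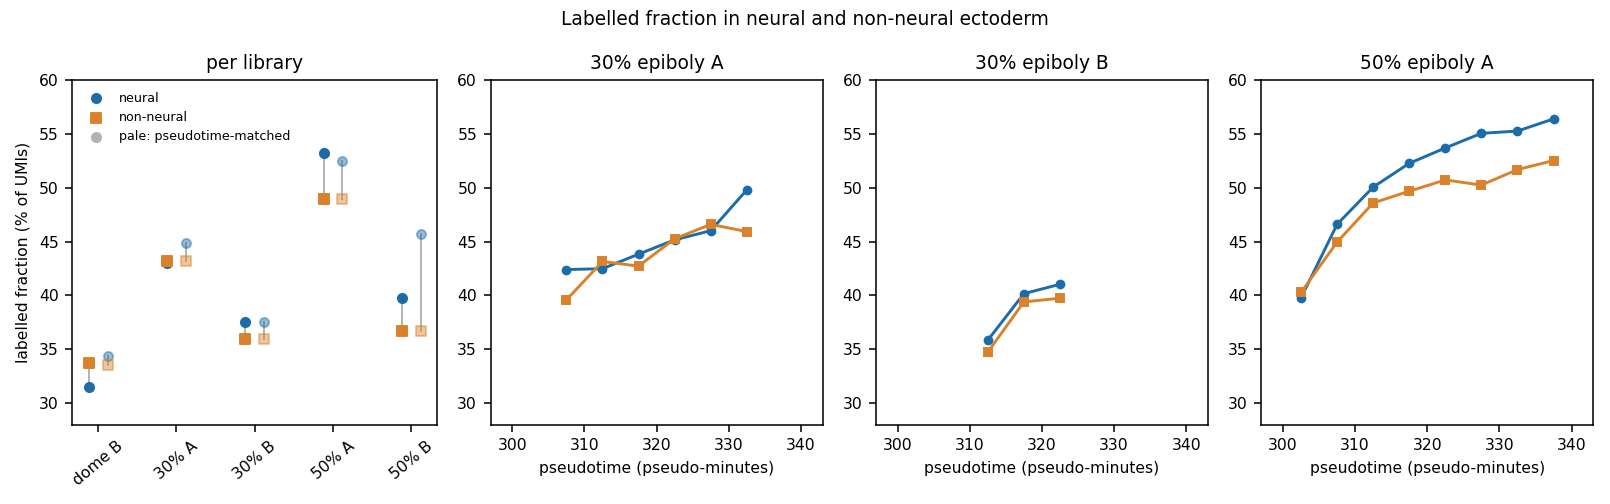
Labelled fraction (percent, pairs with at least 3 UMIs in genes with at least 50 UMIs) in neural and non-neural ectoderm, for each library as deposited and after matching pseudotime (pale points), and by bin of 5 pseudo-minutes in 30% epiboly A, 30% epiboly B and 50% epiboly A. As deposited, neural cells were higher in 3 of 5 libraries, and after matching in 5 of 5.

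The contrast was compared between stages by a term for the change of the difference from 30% to 50% epiboly, with 2 libraries at each stage. Of 5372 genes tested 5 (0.0931%) passed, all with a positive change. For ved the log2 difference was -2.33 and -2.02 at 30% epiboly A and B and -1.48 and -1.45 at 50% epiboly A and B, so the non-neural excess was smaller at the later stage (change 0.87 ± 0.13 SE, adjusted p = 6.7e-07). For eve1 it was -2.70 and -2.53 against -1.39 and -0.50 (change 1.52 ± 0.30 SE, adjusted p = 0.00067), and the value at dome was -4.39. For apoc1 it was -1.38 and -1.12 against -0.55 and -0.01 (change 0.86 ± 0.14 SE, adjusted p = 3.8e-06), and for apoeb -0.79 and -0.67 against -0.23 and -0.29 (change 0.58 ± 0.11 SE, adjusted p = 9.9e-05). The neural excess of hspb1 was larger at 50% epiboly, at 0.45 and 0.58 against 0.12 and 0.20 (change 0.43 ± 0.10 SE, adjusted p = 0.04). All 5 changes had the same sign within replicate A and within replicate B. For ved the level in neural cells went from 437 and 291 CPM to 540 and 1201 CPM, and in non-neural cells from 2203 and 1181 CPM to 1506 and 3286 CPM. DESeq2 called 0 genes (21 at an unadjusted p under 0.05), and edgeR called 0 without 30% epiboly A (140 at an unadjusted p under 0.05). The call of apoc1 was also lost without 50% epiboly A (adjusted p = 0.17), and that of hspb1 without any one of the 4 libraries (adjusted p from 0.07 to 0.67). The change of admp was -0.51 ± 0.43 SE and did not pass.

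The last comparison was made cell by cell. To remove the difference in depth, each cell was thinned to 1000 UMIs, leaving out 163 of 1729 neural and 29 of 847 non-neural cells with fewer. The enveloping layer served as a type outside the ectoderm, and shares are means over libraries (4 libraries in the enveloping layer). Median depth before thinning was 2027 UMIs per cell in neural, 2942 in non-neural and 2716 in enveloping layer cells.

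A UMI of admp was seen in 17.9 ± 4.75% of neural cells (SD, n = 5), in 0.812 ± 1.40% of non-neural cells and in 3.13% of enveloping layer cells. Without thinning the shares were 30.4, 3.95 and 5.57%. The mean non-neural share was thus under that of the enveloping layer, whereas the mean neural share was above it. In 30% epiboly B the thinned non-neural share was above that of the enveloping layer (0.833 against 0%, the latter of 23 cells). For foxd3 the thinned shares were 13.9, 4.40 and 2.56% and for her3 8.77, 1.1 and 0.5%. For sox2 they were 13.9, 10.2 and 1.5%, so that both ectoderm types were above the enveloping layer. The sox2 share was higher in non-neural cells at dome (13.2 against 9.23%) and in 30% epiboly B (13.3 against 12.8%). The share of noto was 18% in neural, 8.25% in non-neural and 12.6% in enveloping layer cells. At dome, 30% epiboly A and 30% epiboly B the neural share was above that of the enveloping layer (7.69, 15.5 and 24.4% against 4.35, 12.7 and 17.4%). In 50% epiboly A it was under it (10.2 against 16%), so the direction was not the same in every library.

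Germ cells (26 and 9 cells of 2 libraries) were read as a further type for the genes higher in non-neural ectoderm. A ved UMI was seen in 68.7% of non-neural, 31.4% of neural and 53.7% of enveloping layer cells, and in 31.8% of germ cells. The thinned shares in non-neural, neural and enveloping layer cells were 46.9, 22.8 and 19.9% for bambia, 25.1, 8.99 and 4.98% for bmp7a, 17.8, 4.18 and 3.32% for eve1 and 56.1, 37.5 and 31.6% for tbx16. In germ cells they were 22.2% for bambia, 11.1% for bmp7a, 11.1% for eve1 and 54.3% for tbx16. The neural shares of ved, bambia, eve1 and tbx16 were thus at or near those of a type outside the ectoderm. Expression in those types was not excluded, so such shares cannot show presence or absence of expression in neural cells. In neural cells 73.5 to 96.7% of ved, 86.5 to 93.8% of tbx16 and, where measured, 79.1 to 100% of bambia RNA was labelled. For eve1 it was 16.4% (11 UMIs) in 30% epiboly A and 82.9% (67 UMIs) in 50% epiboly A. In the SoxB1 gene sox3 the share was 88.0% of non-neural and 80.2% of neural cells against 33.7% of the enveloping layer, and in id1 it was 80.5 and 71.9% against 36.8%. High detection of sox3 and id1 was therefore shared by both ectoderm types.

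Genes of the 2 sides were then read in the same thinned cells. The genes admp, foxd3 and ved were among those of lowest p in total expression of these same cells. The gap between the types is therefore a description and no independent test. A UMI of admp or foxd3 without ved was seen in 23.2% of neural cells (16.9 to 29.5% over libraries) and 1.54% of non-neural cells (0 to 3.33%). Of all types, admp and foxd3 were highest in the notochord (522 and 352.5 CPM), whose cells were not thinned. Whether such cells are particular to neural ectoderm was therefore not tested. A UMI of ved with neither admp nor foxd3 was seen in 26.4% of neural (21.5 to 39.0%) and 65.0% of non-neural cells (50.0 to 80.2%). Both sides were seen together in 5.06% of neural and 3.67% of non-neural cells, and neither in 45.3 and 29.8%. The mean ved share of neural cells was not above that of germ cells, which came from 2 libraries only. In these, dome and 30% epiboly A, it was 23.1 and 30.7% in neural and 19.2 and 44.4% in germ cells. Whether the neural cells with ved only expressed it was not tested. At 1000 UMIs a cell without a UMI of a gene may still express it.

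**Figure D5:**
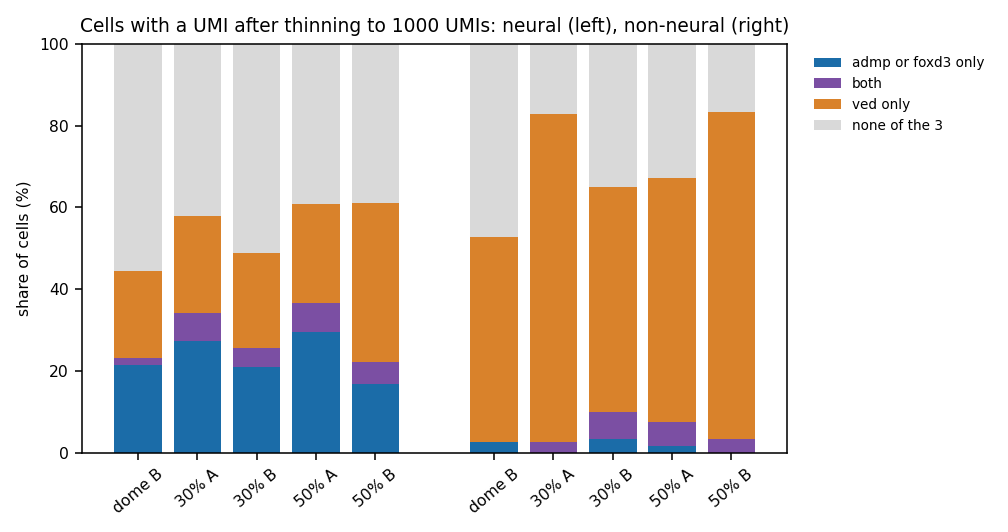
Share of cells (percent of cells thinned to 1000 UMIs) with a UMI of admp or foxd3 only, of ved only, of both or of neither, in neural and non-neural ectoderm of the 5 libraries. Cells with admp or foxd3 only make up 16.9 to 29.5% of neural and 0 to 3.33% of non-neural cells. These genes and ved were among those of lowest p in total expression of the same cells.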

How the data were processed

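Total UMI counts per gene and cell, the labelled fraction per gene and cell and a pseudotime score per cell were used as the authors deposited them. According to the study's methods and notes, the authors aligned the reads and counted UMIs with Drop-seq tools on an Ensembl Zv10 reference, estimated the labelled fraction with GRAND-SLAM on GRCz11 (Bowtie2 and SAMtools are also named) and took cells with enough detected genes. The deposited fraction was weighted by UMIs over gene and cell pairs with at least 3 UMIs. The deposited score is pseudotime, and the cell types are Louvain clusters of total expression. The 4 injected RNAs (0.534% of UMIs) were left out. No doublet caller was run.

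Sums per type and library (at least 5 cells of each type) were tested with edgeR 4.0.16 (TMM, filterByExpr, library term). Labelled and unlabelled log2(CPM + 1) and the fraction were tested with limma 3.58.1 on differences within libraries, requiring 10 UMIs (expression) or 30 UMIs (fraction) behind each value in at least 3 libraries. DESeq2 1.42.0, R 4.3.3, other filters, pseudocounts, pairs, matched cells and omission of each library were alternatives, and the fits were tested on simulated data. Replicates are separate embryo pools, and p-values refer to spread over them. In edgeR and limma that spread is shared between genes, so a p-value does not measure the spread of a single gene alone. Types share a library, so the library is the block by design, and a block of the letters A and B in the comparison of stages was an alternative.

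Named genes were the 10 of lowest adjusted p in each direction with the same sign in every library (5 for components, or the 3 of lowest p where none passed), list members that passed or were most abundant, and the study's annotation markers. Some items that the rule names are not reported here. The members and lists were chosen with earlier results of these data known.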

Additional observations from a re-analysis of the deposited data

Results flagged for a closer look

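A library stood apart from the other 4 in 2 of 22 results compared over the 5 libraries, by the gap of the extreme value relative to the range, and chance alone gives such a gap in about 1 in 20 groups. The log2 difference of admp was 7.69 in 50% epiboly replicate B, where the non-neural sum held no admp UMI. The log2 difference of pkdccb was 4.38 in dome replicate B, where the non-neural sum held no pkdccb UMI. Both values rest on a count of 0 and therefore on the pseudocount.

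The difference between the types was not the same at 30% and 50% epiboly for 5 genes, by the test of the change itself in edgeR. The change of the log2 difference was 0.87 for ved, 0.86 for apoc1, 0.58 for apoeb, 1.52 for eve1 and 0.43 for hspb1. The calls of all 5 were lost without 30% epiboly replicate A and in DESeq2. That of hspb1 was also lost without each of the other 3 libraries, and that of apoc1 without 50% epiboly replicate A.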

How the results depend on the processing

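For total expression, 6 genes passed with no replicate block (no library term, so that the types were unpaired), 31 in DESeq2, 25 with 10 or more UMIs in every sum, 102 with pseudotime-matched cells (56 of them among the 67) and 29 to 94 when a library was left out. All 31 genes of DESeq2 were among the 67. Without TMM factors 63 genes passed, and with no filter 69. For labelled expression, 0 genes passed with a pseudocount of 0.1, with no filter and with pseudotime-matched cells, 2 with pairs of 1 or more UMIs, 2 with array weights, 5 with 30 or more UMIs behind the fraction (ved, bambia, tbx16, apoc1 and apoeb) and 0 to 1 when a library was left out. For unlabelled expression, 1 gene passed with pairs of 1 or more UMIs, which was foxd3. For the change from 30% to 50% epiboly, 0 genes passed in DESeq2, 7 with the replicate block (all 5 genes included) and 0 to 6 when a library was left out. The labelled fraction of single genes gave 0 calls under each alternative. The mean difference of the overall labelled fraction stayed positive, from 0.203 to 3.32 points under other settings and from 0.559 to 2.17 points when a library was left out. The mean pseudotime difference was -2.63 with means in place of medians, and -3.32 to -1.17 when a library was left out. Of the 20 genes of lowest adjusted p, 14 lost their call without the library term and 2 in DESeq2 (hspb1 and apoc1). Among the named and listed genes, none called in total expression in the main fit or an alternative reversed its direction between the 2. The labelled fraction difference of single libraries did change sign with pseudotime matching. It went from -2.18 to 0.78 points at dome and from -0.20 to 1.71 points in 30% epiboly A. Where a call was lost, the cause was not tested, other than that fewer libraries or genes entered. Genes without 10 UMIs in every sum gave no value under that setting. Depth limits the labelled tests: 45 of the 67 genes had too few UMIs for them.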
